A study of Mus musculus with 6 samples.

Results

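The genes described here encode the voltage-gated calcium channels, the voltage-gated sodium channels and the HCN channels of the mouse hippocampus, with their auxiliary subunits. They were chosen by symbol and not by measured value: every protein-coding row of the deposited count table whose symbol begins with Cacna1, Cacna2, Cacnb1 to Cacnb4, or Scn or Hcn followed by a digit. This gave 35 genes of 32067 rows, 18110 of them protein-coding. Counts and medians below cover all 35, and 32 are described singly. RNA came from the hippocampus of wild type female C57BL/6J mice, all ovariectomised from 8 weeks of age, with tissue taken at 17 weeks. In between, the OVX group (n = 3) was fed control chow and the OVX+RJ group (n = 3) was fed chow holding 1% royal jelly, which worker honeybees secrete. Ovariectomy removes the main source of circulating estrogen and was shared by both groups. A sham-operated group is not analysed here. The labels call the 6 libraries biological replicates.

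Voltage-gated channels open when the membrane potential changes and so turn electrical activity into ion flow. A sodium or calcium channel is built around a single large pore subunit (alpha, or alpha1) that opens with depolarisation, and smaller beta and alpha2delta subunits set its traffic to the membrane and its kinetics. HCN channels open with hyperpolarisation, bind cyclic nucleotides and carry a pacemaker current that, in hippocampal pyramidal cells, damps dendritic integration. In the hippocampus sodium channels start and carry the action potential, P/Q-type and N-type calcium channels trigger transmitter release, L-type channels couple activity to transcription, and T-type channels drive bursts.

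Values are CPM, a gene's count divided by all counts of its library and given per 1000000 of them. Library totals ran from 34718596.5 to 58163785 counts. OVX+RJ 1 stood apart, with a mean correlation of 0.983 with the other libraries across genes, against 0.986 to 0.987 for those. No gene of the lists for neurons, CA1, CA2 and CA3, dentate granule cells and interneurons was at 0 in all libraries. That held for lists of blood and muscle genes too, so it does not by itself show the tissue. Skeletal and cardiac muscle markers summed to between 4.52 and 5.99 CPM over the libraries. Summed CPM of 7 general neuronal markers lay between 6224 and 6275 in OVX and between 6303 and 6528 in OVX+RJ. Interneuron markers summed to between 969 and 1015 CPM in OVX and between 978 and 1086 CPM in OVX+RJ, and dentate granule markers to between 361 and 496 and between 303 and 465 CPM. In whole tissue, fewer cells of a type and less RNA per cell cannot be told apart.

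No channel gene passed the test for a difference between diets. Of the 35 genes, 32 passed the filter on low counts, and edgeR's quasi-likelihood test, adjusted by Benjamini-Hochberg over all 18629 genes, called 0 of them, at adjusted p values between 0.986 and 0.9995. Over all genes tested it also called 0, or 0%. DESeq2 called 0 channel genes and 13 genes in all. At an unadjusted p under 0.05 there was 1 channel gene of the 32, Cacna1h, lower in OVX+RJ, against 4.05% of all genes tested (2.14% higher and 1.91% lower). DESeq2 gave 3 channel genes of the 32, against 3.7% of all genes tested. The groups did not overlap at 2 channel genes of the 32, Cacna1h and Cacnb3, both lower in OVX+RJ. Over all genes tested that share was 10.5%, made up of 4.53% higher and 5.95% lower. The channel genes thus stood near or under the background in edgeR's test and in overlap. In DESeq2's test they stood above it, which rests on only 3 genes. Of these, Cacnb2 had an unadjusted p of 0.0493 in DESeq2's test, and its log2 fold change in edgeR was 0.048 without OVX+RJ 1. Their log2 fold changes, OVX+RJ minus OVX, had a median of 0.040, with 8 of 32 negative, and in the genes described singly ran from -0.27 (Cacna2d4) to 0.48 (Hcn4). The median over all genes tested was -0.0015, with 50.4% negative. Of the 32 genes, 24 fall in the longest of 3 equal transcript length classes of protein-coding genes tested. Over that whole class the median was 0.019 and 56.2% were positive, against -0.026 and 41.7% in the shortest class, and the part of transcript length in the channel genes' values was not tested.

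**Figure D1:**
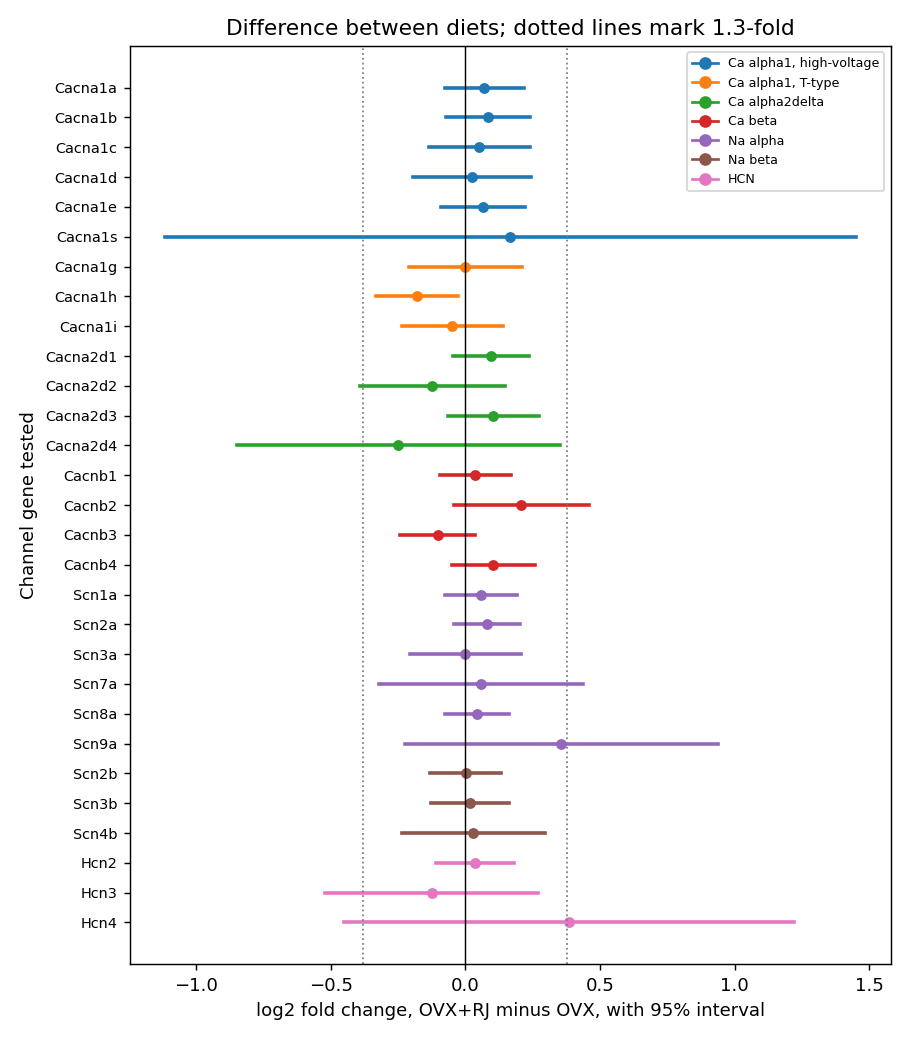
limma's log2 fold change on log2 CPM (OVX+RJ minus OVX, x axis) of 29 of the 32 channel genes tested (y axis), with its 95% interval over 3 against 3 libraries, coloured by subfamily. The intervals of 21 of the 29 genes lie between the dotted lines at a 1.3-fold difference in either direction, and those of Cacna1s and Hcn4, genes with few counts, reach past 2-fold.

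The size of difference that these libraries leave room for was small for most of the set. The 95% interval of the log2 fold change, from limma's moderated error on log2 CPM, lay within 1.3-fold in either direction for 22 of the 32 genes and within 1.5-fold for 27. The 5 genes whose interval reached past 1.5-fold, among them Cacna1s, Cacna2d4, Hcn4 and Scn9a, all had means under 10 CPM. Among the 25 genes at 10 CPM or more, the coefficient of variation over the 6 libraries ran from 2.58% (Cacnb1) to 15.0% (Cacnb2), with a median of 6.93%.

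**Figure D2:**
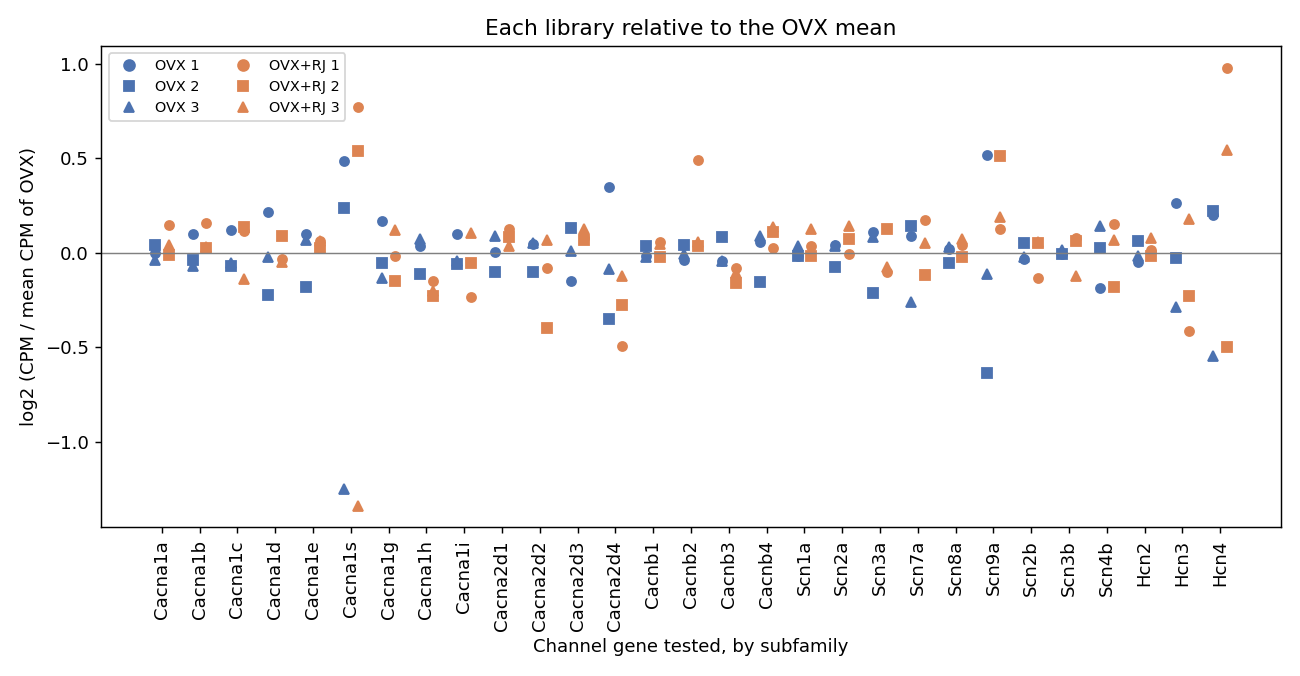
The log2 ratio of CPM to the OVX mean (y axis) for 29 of the 32 channel genes tested (x axis, by subfamily), with a point for each of the 3 OVX and 3 OVX+RJ libraries. The points of most genes mix around 0. OVX+RJ 1 is the highest point of Cacnb2, and the widest spreads belong to Cacna1s and Hcn4.

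Levels can be compared between genes only per length. Divided by the length of the longest protein-coding transcript in GENCODE M21, in kilobases, the highest of the genes described singly were the sodium channel beta subunit genes Scn3b at 76.7 ± 3.70 and Scn2b at 70.8 ± 3.62 CPM per kb (SD, n = 6 libraries). Scn3b and Scn2b overlapped in their ranges. The calcium channel beta subunit gene Cacnb3 followed at 55.7 ± 3.20, and the leading pore genes were Scn2a at 43.6 ± 2.22, Scn8a at 35.4 ± 1.10 and Cacna1e at 32.7 ± 2.18 CPM per kb. From Scn8a through Cacna2d1, Cacnb1, Cacna1e and Cacna2d3 to Hcn2, neighbours in the order overlapped, and so did those from Cacna1h through Cacna1b to Cacna1c and those from Scn3a through Cacna1i and Cacna1d to Cacna1g. Neighbours also overlapped from Cacnb4 through Cacnb2 and Cacna1a to Scn1a, and from Scn9a through Hcn4 to Cacna2d4. So did Cacna1s with Cacna1f, and Scn4a with Scn11a. Genes known from other tissues were at the bottom. Cacna1s and Scn4a, the calcium and sodium channels of skeletal muscle, had between 5 and 24 and between 0 and 4 counts per library. The retinal gene Cacna1f had between 5 and 10 counts, and Scn11a, a gene of sensory neurons, at most 2. Cacna1f, Scn4a and Scn11a were the 3 genes that did not pass the filter on low counts. Levels with another choice of transcript were not computed.

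**Figure D3:**
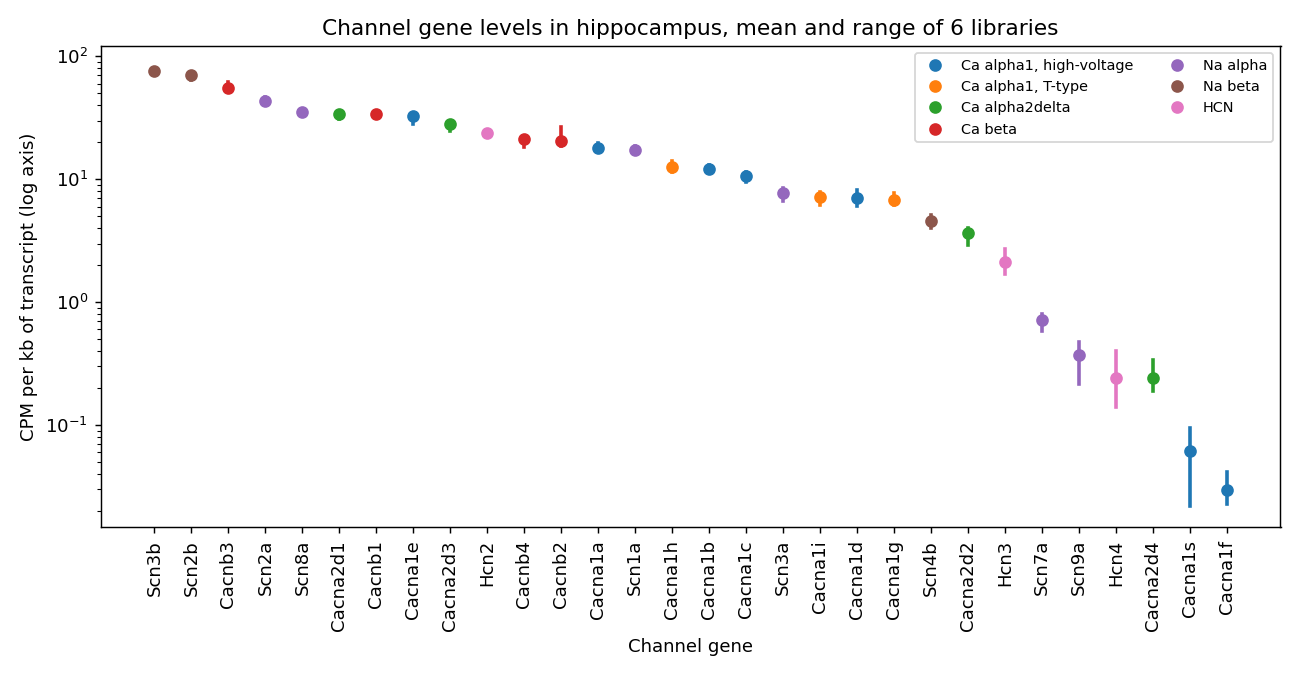
CPM per kb of transcript (y axis, log scale) of 30 channel genes (x axis, from the highest), as the mean (point) and range (line) of the 6 libraries, coloured by subfamily. Scn3b is at 76.7 and Scn2b at 70.8 CPM per kb, Cacna1g is the last of a gradual slope at 6.80, and Scn4a and Scn11a, with 0 counts in some libraries, are left out because the axis is logarithmic.

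Among high-voltage-activated calcium channel pore genes, Cacna1e was the most abundant, with between 38.4% and 42.6% of the subfamily's CPM per kb in each library. Its product is the R-type channel. In OVX 1, 2 and 3 Cacna1e had 514, 424 and 502 CPM, and in OVX+RJ 501, 488 and 501 CPM. The groups overlapped, OVX 2 was the lowest library, and the log2 fold change of 0.061 (SE 0.071) became -0.019 without OVX 2. Cacna1a, the P/Q-type pore gene, was at 139, 144 and 136 CPM in OVX and 155, 139 and 144 CPM in OVX+RJ, a log2 fold change of 0.074 (SE 0.066). Cacna1b, which encodes the N-type pore, was at 122, 111 and 109 against 128, 116 and 117 CPM, at 0.086 (SE 0.071). In both, OVX+RJ 1 was the highest of the 6 libraries and the groups overlapped. The L-type genes Cacna1c and Cacna1d carry the calcium entry that couples to the nucleus. Cacna1c had 149, 130.3 and 132 CPM in OVX and 149, 151 and 125 CPM in OVX+RJ, with OVX+RJ 3 lowest and OVX+RJ 2 highest. Cacna1d had 71.0, 52.4 and 60.2 against 59.9, 65.1 and 59.1 CPM, and both the highest and the lowest library were OVX. Their log2 fold changes were 0.057 (SE 0.085) and 0.017 (SE 0.099).

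T-type calcium channels activate near the resting potential, and their 3 pore genes differed in how the groups lay. Cacna1h, which encodes CaV3.2, had 113, 102 and 116 CPM in OVX 1, 2 and 3 and 99.6, 94.2 and 95.9 CPM in OVX+RJ 1, 2 and 3. Every OVX+RJ library lay below every OVX library, by 2.41 CPM at the nearest pair. The means were 96.6 ± 2.76 against 110.5 ± 7.44 CPM (SD, n = 3 each), with a log2 fold change of -0.18 (SE 0.069, limma's 95% interval -0.33 to -0.028), an unadjusted p of 0.0262 and an adjusted p of 0.986 in edgeR's test. The unadjusted p ran from 0.010 without OVX 2 to 0.114 without OVX 3, and was above 0.05 without OVX 1, OVX 3, OVX+RJ 2 or OVX+RJ 3. With DESeq2 size factors OVX 2 and OVX+RJ 1 overlapped. Dentate granule cells are rich in T-type channels, and the summed CPM of 8 dentate markers was 454, 361 and 496 in OVX against 347, 465 and 303 in OVX+RJ. Log2 fold changes were below 0 at all 8 (median -0.23), with 3 at an unadjusted p under 0.05, against 1.91% lower over all genes. Of the 8, 0 were called, and the part of granule cells in the Cacna1h values was not tested. The dentate sums overlapped between groups. Pericyte and smooth muscle markers, also cells with T-type channels, summed to 184, 175 and 176 CPM in the OVX libraries and to 161, 164 and 156 CPM under royal jelly, and 6 of these 7 genes were negative with a median of -0.22. Of these 7 genes, 0 were called, and 2 were lower at an unadjusted p under 0.05 in edgeR's test, against 1.91% of all genes. The groups did not overlap at 3 of them, all lower, against 5.95% lower over all genes tested. The pericyte and smooth muscle sums did not overlap between groups. The part of these cells in the Cacna1h values was likewise not tested. Exons of Tpsg1 lie opposite those of Cacna1h, and Tpsg1 had between 4 and 9 counts per library in OVX and at most 1 in OVX+RJ, against at least 3462 for Cacna1h.

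The other T-type genes overlapped between diets. Cacna1g, the CaV3.1 gene, was at 64.3, 55.2 and 52.1 CPM in OVX and 56.6, 51.5 and 62.1 CPM in OVX+RJ, a log2 fold change of 0.00062 (SE 0.095). Cacna1i, the CaV3.3 gene, was at 76.4, 68.3 and 69.2 against 60.7, 68.6 and 76.8 CPM, at -0.044 (SE 0.085), with OVX+RJ 3 highest and OVX+RJ 1 lowest. Cacna1h held between 43.3% and 51.5% of the subfamily's CPM per kb, both extremes being reached in a library numbered 3, OVX+RJ 3 and OVX 3. The subfamily's total was 27.5 ± 1.65 CPM per kb in OVX and 25.5 ± 1.23 in OVX+RJ.

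Alpha2delta subunits bring calcium channels to the membrane, and Cacna2d1 and Cacna2d2 encode the targets of gabapentin. Cacna2d1 had 247, 229 and 262 CPM in OVX and 268, 261 and 252 CPM in OVX+RJ, a log2 fold change of 0.094 (SE 0.065). Cacna2d3 had 91.0, 110.5 and 102 against 107, 106 and 110.0 CPM, at 0.099 (SE 0.077). In these 2 the groups overlapped, at Cacna2d1 through OVX 3 and at Cacna2d3 through OVX 2. Cacna2d2 was at 22.8, 20.6 and 22.9 against 20.9, 16.8 and 23.2 CPM, at -0.11 (SE 0.12), and OVX+RJ 2 was its lowest library. Cacna2d4, known from the retina, had means of 1.54 ± 0.385 CPM in OVX and 1.26 ± 0.161 CPM in OVX+RJ (SD, n = 3 each).

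Beta subunits bind the pore subunit inside the cell, and their 4 genes included the lower Cacnb3 and the uneven Cacnb2. Cacnb3 had 154, 168 and 153 CPM in OVX and 149, 142 and 147 CPM in OVX+RJ. All OVX+RJ libraries lay below all OVX libraries, at means of 146 ± 3.84 against 158 ± 8.18 CPM (SD, n = 3 each) and a log2 fold change of -0.10 (SE 0.063, 95% interval -0.24 to 0.035). The unadjusted p was 0.134 in edgeR's test over all genes, and with CPM scaled by TMM, an alternative added after the data were seen, the groups overlapped. The share of Cacnb3 in the subfamily's CPM per kb was 43.4%, 45.8% and 43.1% in OVX against 39.8%, 41.0% and 41.1% in OVX+RJ. Cacnb2 had 73.2, 77.3 and 74.8 CPM in OVX and 106, 77.1 and 78.2 CPM in OVX+RJ. A single library, OVX+RJ 1, was far above the other 5, which lay between 73.2 and 78.2 CPM. The log2 fold change of 0.23 (SE 0.11) was 0.048 without OVX+RJ 1. Cacnb4, whose loss causes ataxia and seizures in mice, was at 175, 151 and 179 against 172, 182 and 185 CPM, at 0.10 (SE 0.070), and the groups overlapped. Cacnb1 was the steadiest gene of the set at or above 10 CPM, with 113, 117 and 113 CPM in OVX and 119, 113 and 118 CPM in OVX+RJ.

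**Figure D4:**
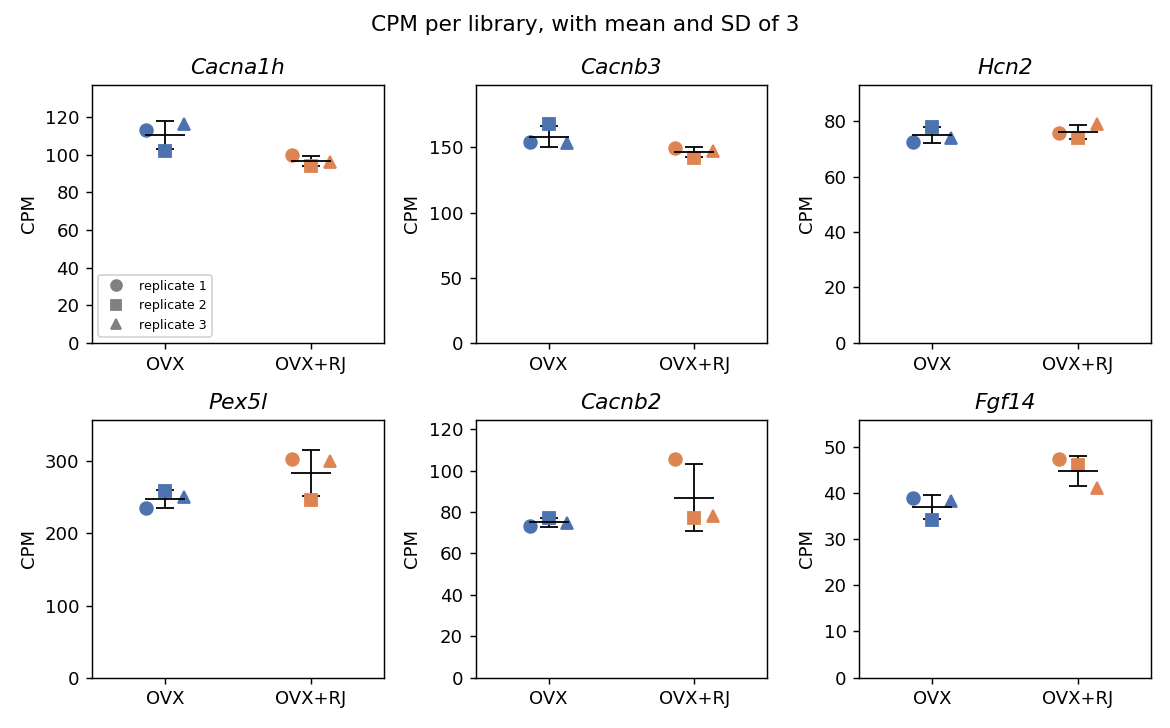
CPM (y axes, from 0) of Cacna1h, Cacnb3, Hcn2, Pex5l, Cacnb2 and Fgf14 in the 3 OVX and 3 OVX+RJ libraries (x axes), with a symbol per replicate number and the mean and SD of each group. Cacna1h, Cacnb3 and Fgf14 do not overlap between groups, Hcn2 is even in all 6 libraries, Pex5l is high in OVX+RJ 1 and 3 but not 2, and Cacnb2 is high in OVX+RJ 1 alone.

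At every sodium channel pore gene tested the groups overlapped, and 0 were called. Scn2a and Scn8a, the NaV1.2 and NaV1.6 genes of excitatory axons, together with Scn1a, the NaV1.1 gene that serves fast-spiking interneurons, made up most of the subfamily, with medians of 41.1%, 33.6% and 16.6% of its CPM per kb. Scn2a had 390.1, 360.0 and 389 CPM in OVX and 378, 399.8 and 419 CPM in OVX+RJ, a log2 fold change of 0.082 (SE 0.056, 95% interval -0.042 to 0.21). Scn8a had 405, 386 and 409 against 411, 394 and 421 CPM, at 0.043 (SE 0.054, 95% interval -0.077 to 0.16). Scn1a had 141, 141 and 147 against 147, 142 and 156 CPM, at 0.059 (SE 0.061, 95% interval -0.075 to 0.19). In each of these 3 genes OVX+RJ 3 was the highest library and the groups overlapped. Scn3a, the NaV1.3 gene, which is most active before birth, had 79.8, 63.9 and 78.4 CPM in OVX and 68.9, 80.7 and 70.2 CPM in OVX+RJ, a log2 fold change of -0.0028 (SE 0.094). Scn9a, known from pain neurons, and the sodium sensor gene Scn7a were low, with means of 3.28 ± 1.31 and 5.18 ± 0.755 CPM in OVX. Scn9a had a log2 fold change of 0.31 (SE 0.26), which was 0.066 without OVX 2 and 0.65 without OVX 1. Exons of Gm13629 lie opposite those of Scn9a and had between 112 and 205 counts per library against 123 to 184 for Scn9a. The sources used here do not say whether counting used strand, which leaves the Scn9a values uncertain. The same holds for the calcium channel gene Cacna1s, at 5 to 24 counts, where the opposite gene Gm37759 had between 0 and 9.

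Sodium channel genes lie side by side in the mouse genome. In the RefSeq order of protein-coding genes, Scn3a is next to Scn2a, and Scn1a, Scn9a and Scn7a follow each other, all on chromosome 2, while Scn2b is next to Scn4b on chromosome 9. Levels lay far apart in most of these pairs. Scn2a had 43.6 ± 2.22 CPM per kb (SD, n = 6) and Scn3a 7.70 ± 0.724. Scn1a had 17.4 ± 0.686 and Scn9a 0.370 ± 0.100, and Scn2b had 70.8 ± 3.62 and Scn4b 4.61 ± 0.475. The neighbours Scn9a and Scn7a were both low, with Scn7a at 0.716 ± 0.0807, and their ranges did not overlap.

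Beta subunits of sodium channels are adhesion proteins of the immunoglobulin type that bind the pore subunit. Scn2b had 323, 343 and 325 CPM in OVX and 301, 342 and 344 CPM in OVX+RJ, and OVX+RJ 1 was its lowest library. Scn3b had 315, 316 and 320.4 against 335, 331 and 292 CPM, and its OVX libraries lay within 5.33 CPM of each other. Scn4b, which supports resurgent current, was the least abundant, at 20.1, 23.2 and 25.2 against 25.4, 20.1 and 23.9 CPM. The log2 fold changes of these 3 genes were between 0.0034 (Scn2b) and 0.030 (Scn4b), and at each of them the groups overlapped.

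Among the HCN genes, Hcn2 was even in all 6 libraries, while Hcn4 varied within both groups. Hcn2, a main neuronal HCN gene, had 72.5, 78.1 and 74.1 CPM in OVX and 75.6, 74.0 and 78.9 CPM in OVX+RJ, a log2 fold change of 0.036 (SE 0.066, 95% interval -0.11 to 0.18). Hcn4, the pacemaker gene of the heart and thalamus, had 1.44, 1.46 and 0.859 CPM in OVX and 2.47, 0.889 and 1.83 CPM in OVX+RJ, from 35 to 95 counts. It was highest in OVX+RJ 1 and its log2 fold change of 0.48 (SE 0.38) was 0.11 without that library and 0.79 without OVX+RJ 2. Hcn3 was at 8.95 ± 1.71 CPM in OVX and 8.16 ± 1.75 CPM in OVX+RJ.

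**Figure D5:**
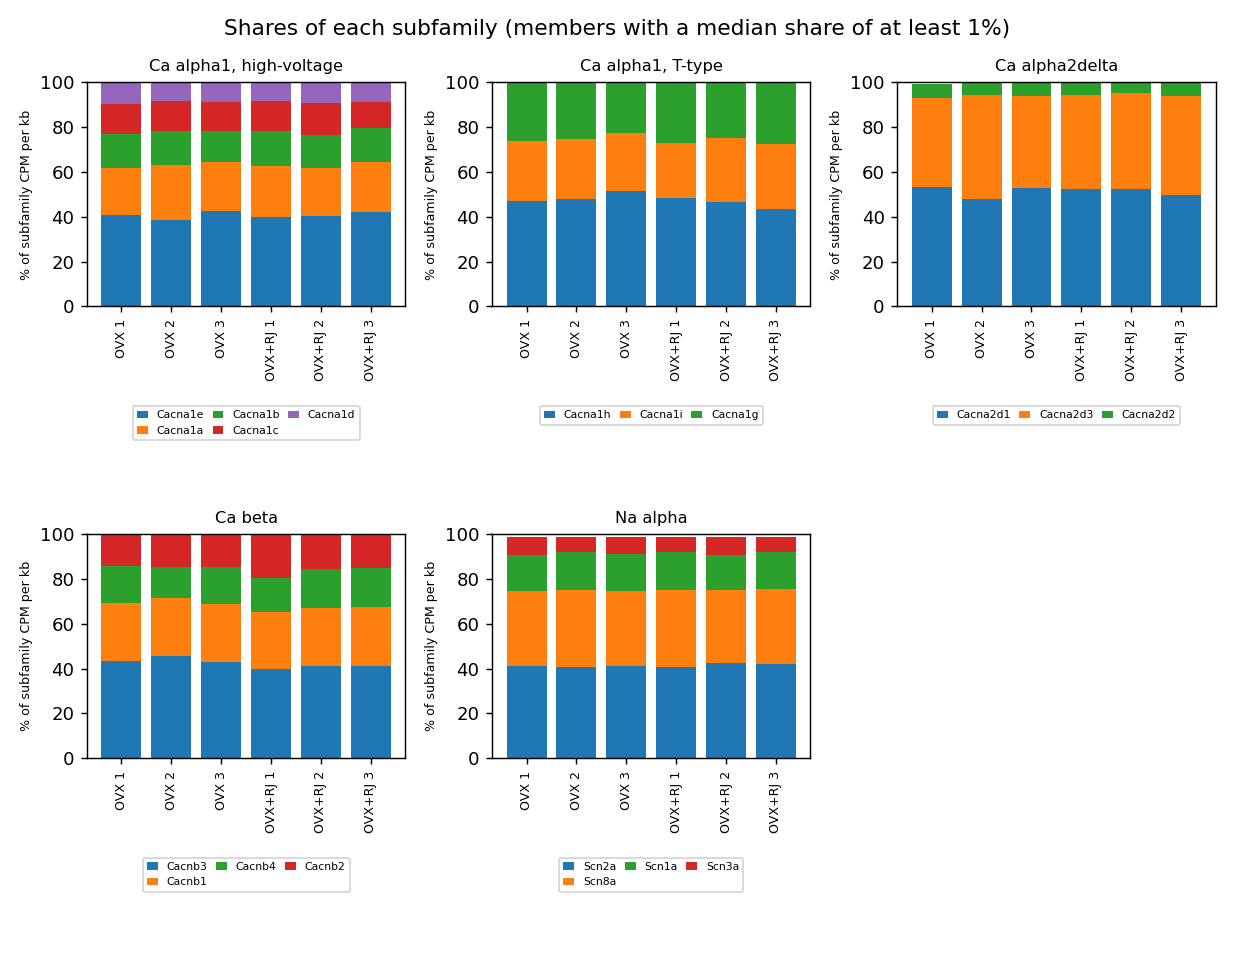
Share of the summed CPM per kb of 5 subfamilies (y axes, percent) held by each gene with a median share of at least 1%, in the 3 OVX and 3 OVX+RJ libraries (x axes). The order of the leading genes is the same in all 6 libraries in the sodium pore genes, with Scn2a, Scn8a, Scn1a and Scn3a from the largest share down, and in the T-type genes Cacna1h leads in each.

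Partners and regulators of these channels were read from a list of 32 genes outside the symbol rule. Of 30 tested, 0 were called, the log2 fold change was positive at 22 and negative at 8, and its median was 0.055. At an unadjusted p under 0.05 there were 2 higher and 0 lower, against 4.05% of all genes tested. The groups did not overlap at 2 higher and 1 lower, against 10.5% of all genes tested. Fgf14, an intracellular FGF homologous factor that binds sodium channels at the axon initial segment, had 38.8, 34.0 and 38.2 CPM in OVX and 47.3, 46.0 and 41.1 CPM in OVX+RJ. The groups did not overlap, at a log2 fold change of 0.29 (SE 0.089) and an unadjusted p of 0.00634, adjusted 0.986. Pex5l encodes TRIP8b, the auxiliary subunit that sets the membrane traffic of HCN channels. It had 235, 259 and 251 CPM in OVX and 303, 247 and 301 CPM in OVX+RJ, and OVX+RJ 1 and 3 were above all OVX libraries and OVX+RJ 2 was among them. Its log2 fold change was 0.20 (SE 0.085) with an unadjusted p of 0.0338 in edgeR's test over all genes. Tpcn1, a two-pore channel of endosomes, had 36.6, 34.6 and 38.1 against 29.5, 33.6 and 34.2 CPM, at -0.16 (SE 0.083), and every OVX+RJ library lay below every OVX library. Genes for calcium stores, pumps, exchangers and calmodulin gave 0 called of 24, with 14 positive, 10 negative, a median of 0.019 and 0 at an unadjusted p under 0.05. Those with the lowest p were Slc8a1 and Slc8a2, sodium-calcium exchangers at 0.23 (SE 0.11) and -0.10 (SE 0.064), and Atp2b1, a plasma membrane calcium pump at 0.13 (SE 0.066). Of these 24 genes the groups did not overlap at Slc8a2, which was lower in OVX+RJ, and at Atp2b1, which was higher, against 10.5% of all genes tested.

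Calcium entry through these channels drives immediate early genes. Of 20 such genes 19 were positive with a median of 0.45, and 0 were called. At an unadjusted p under 0.05 there were 10 higher and 0 lower, against 2.14% higher over all genes tested. The groups did not overlap at 9 higher and 0 lower, against 4.53% higher over all genes tested. The part of the channels in these values was not tested. Junb, Egr2 and Fos had the lowest p, at log2 fold changes of 0.74, 1.84 and 1.33. These values were known when the channel genes were chosen. Because Egr2 is a zinc finger factor with a defined binding sequence, the promoter windows of the channel genes were searched for that sequence. RefSeq windows on GRCm38.p6, from 250 bases before to 50 after a start site, were found for 25 of the 35 genes, 35 windows in all, and none was at hand for Cacna1h. The EGR motif GCGNGGGCG, on either strand, was in 8 of these windows, from 8 genes: Cacna1b, Cacna1c, Cacna1d, Cacna2d1, Cacna2d2, Hcn2, Scn7a and Scn8a. It is in 5.55% of all 32851 windows. The motif is made of G and C but for its free base, and the median GC content was 62.7% in the channel windows and 52.7% in all. The 8 genes had log2 fold changes from -0.11 (Cacna2d2) to 0.094 (Cacna2d1), 7 positive and 1 negative, and 0 at an unadjusted p under 0.05. The cAMP response element TGACGTCA was in 0 of the 35 windows and in 1.79% of all. The 250 bases before the start site are shown for a gene of each main class, an N-type pore, an alpha2delta subunit, an HCN channel and a sodium pore, with the EGR motif on either strand in capitals, 5′ to 3′ on the gene's strand. They lie, in GRCm38.p6, at chr2:24763153-24763402, minus strand (Cacna1b), chr5:15934441-15934690, plus strand (Cacna2d1), chr10:79716384-79716633, plus strand (Hcn2) and chr15:100870395-100870644, plus strand (Scn8a).
Cacna1b: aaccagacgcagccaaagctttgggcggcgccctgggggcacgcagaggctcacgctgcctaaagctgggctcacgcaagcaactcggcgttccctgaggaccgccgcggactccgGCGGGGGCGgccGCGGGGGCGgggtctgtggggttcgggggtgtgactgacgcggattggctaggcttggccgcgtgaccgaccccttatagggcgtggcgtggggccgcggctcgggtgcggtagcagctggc
Cacna2d1: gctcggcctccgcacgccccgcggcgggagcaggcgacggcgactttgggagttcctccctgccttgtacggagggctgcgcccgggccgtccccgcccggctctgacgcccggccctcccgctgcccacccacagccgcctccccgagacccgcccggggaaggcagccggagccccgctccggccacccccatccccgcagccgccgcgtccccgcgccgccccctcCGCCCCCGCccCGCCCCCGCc
Hcn2: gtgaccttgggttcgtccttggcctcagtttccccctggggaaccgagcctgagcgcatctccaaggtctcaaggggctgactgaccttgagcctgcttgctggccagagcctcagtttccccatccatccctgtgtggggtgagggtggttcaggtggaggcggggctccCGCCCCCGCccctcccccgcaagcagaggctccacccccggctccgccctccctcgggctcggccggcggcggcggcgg
Scn8a: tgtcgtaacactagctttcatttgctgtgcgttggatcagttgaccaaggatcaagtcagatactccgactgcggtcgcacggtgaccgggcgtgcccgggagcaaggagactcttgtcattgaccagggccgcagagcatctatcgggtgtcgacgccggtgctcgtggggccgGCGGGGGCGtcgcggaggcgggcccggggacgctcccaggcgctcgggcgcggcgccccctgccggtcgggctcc

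Cacna1b and Cacna2d1 each hold the motif at 2 places a few bases apart, and Hcn2 and Scn8a hold it once. A match is a run of letters and not a measured binding site. The log2 fold changes of these genes were 0.086, 0.094, 0.036 and 0.043, each with its 95% interval within 1.3-fold.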

How the data were processed

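The authors deposited a table of expected counts by gene symbol, unscaled. HISAT2 2.2.1, StringTie 2.2.1, fastp 0.23.4, bcl2fastq 2.19 and the build GRCm39 are named, per the submitters' processing notes, with no role for each, and the annotation and strand setting of counting were not given in the sources used here. Poly(A) RNA and a directional kit were used, per the labels' protocols. Values that were not whole (51 of 32067 rows) were rounded, upwards where midway, for the tests.

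CPM were taken over all rows. Tests used R 4.3.3 and edgeR 4.0.16: filterByExpr, TMM, glmQLFit and glmQLFTest on all 6 libraries, adjustment over 18629 genes and a threshold of 0.05. Standard errors and 95% intervals come from limma 3.58.1 on log2 CPM (prior count 2). DESeq2 1.42.0 was an alternative. Transcript lengths and opposite-strand exons came from GENCODE M21 on GRCm38, so no gene coordinates are given. An exact permutation test of 3 against 3 cannot go below 0.1 two-sided and was not used.

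Groups came from sample titles. Values in each library are given for channel genes at an unadjusted p under 0.05 or without overlap and for the main hippocampal ones. Of the regulator, calcium handling and immediate early lists, the 3 genes with the lowest p are named. Members and lists were chosen with earlier results of these data known. Of the 35 genes 3 entered every fit and count but are not reported here singly. Cacnb1 and Cacna2d4 values were added after they were seen. p-values set the difference between the groups against the spread of these libraries within them.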

Additional observations from a re-analysis of the deposited data

How the results depend on the processing

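No channel gene was called under any of the 14 alternatives, and the median log2 fold change of the channel genes ran from 0.026 to 0.077 over the left-out libraries. Over all genes tested, 0 calls became 13 with DESeq2, 3 with robust empirical Bayes and 1 with the replicate block, and between 0 and 8 over the left-out libraries. Channel genes at an unadjusted p under 0.05, 1 in the main test, were 3 with DESeq2 (Cacna1h and Cacnb2 among them), 2 with the replicate block (Cacna1h among them) and between 0 and 3 over the left-out libraries. The share of all genes at such a p was 4.05% in the main test, 3.7% with DESeq2 and 3.58% with the replicate block. Over the left-out libraries it ran from 3.26% to 5.88%, and both the 5.88% and the 3 channel genes came without OVX+RJ 2. Channel genes without overlap, 2 of 32, were 1 with TMM-scaled CPM and 0 with DESeq2 size factors, and between 4 and 8 with a library left out, where fewer libraries must separate. The share of all genes without overlap was computed only for CPM of all 6 libraries (10.5%). These other counts thus have no background and are not read as a result about the channel genes. Replicate numbers gave no sign of pairing the samples. Deviations of same-numbered libraries from their group means correlated at 0.046, -0.0024 and 0.0031, and only OVX 1 and OVX+RJ 1 each correlated best with their own number. With 3 libraries per group such a check can miss a pairing. Signs changed at 0 to 2 of the 32 genes under other tools, scalings and filters, and at 3 to 8 with a library left out. Of the 7 genes tested under 10 CPM, 5 had intervals that reached past 1.5-fold, so a difference of that size is not excluded at these.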
